A study of Mus musculus with 12 samples.

Results

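The regions described here are stretches of open chromatin in the mouse mammary carcinoma line 4T1 that had an ATAC-seq peak in every library but ranked lower among such regions after treatment with decitabine (DAC). The series held 12 libraries: 3 of 4T1 cells given 1 µM DAC for 48 h, 3 of control 4T1 cells, 3 of cells of the melanoma line B16F10 given 0.1 µM DAC for 48 h, and 3 of control B16F10 cells. ATAC-seq marks accessible DNA with a transposase that inserts sequencing adapters into it. Dead cells had been taken out with magnetic beads beforehand, in all groups. Peaks of the 6 4T1 libraries that overlapped by at least 1 bp were joined into 146712 regions on the 19 autosomes and X, of which 67038 held a peak in all 6 libraries. In each library these shared regions were ranked by the highest fold enrichment of their peaks, a ratio of the signal at the summit to the local background, and the ranks were turned into percentiles. A region was chosen when its highest DAC percentile lay below its lowest control percentile and the mean DAC percentile was at least 20 points below the mean control percentile. The rule selected 7314 regions, 10.9% of the shared regions, and they are called falling regions below. The same rule in the other direction gave 6052 regions (9.03%), called rising regions, and without the minimum of 20 points 18790 regions (28%) had all DAC percentiles below all control percentiles. Since the 4T1 percentiles chose the regions, their values in 4T1 are a description and carry no test.

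Open chromatin away from promoters is mostly made up of enhancers and of insulator sites. Enhancers are held open by transcription factors that differ between cell types. In epithelial tumour cells these include AP-1, dimers of JUN and FOS proteins that act downstream of growth factor signalling, the TEAD proteins, which bind DNA for the Hippo pathway coactivators YAP and TAZ, and the RUNX proteins, which bind together with CBFB. CTCF is a zinc finger protein that anchors chromatin loops and occupies many of the same sites in all cell types. Decitabine is a cytidine analogue that is built into DNA during replication and traps DNA methyltransferases there, so that methylation is lost as cells divide. All 6 4T1 libraries had a promoter peak at 10 of 10 mammary epithelial markers, among them Krt8, Krt18, Epcam and Cdh1, and at 2 of 10 melanocyte markers. The 6 B16F10 libraries had one at 1 of 10 and at 8 of 10 of the same markers. Of 10 leukocyte markers, 0 to 2 had a promoter peak in 4T1 libraries and 0 in B16F10 libraries, and of 10 fibroblast and endothelial markers 1 to 3 in 4T1 and 2 in B16F10 libraries.

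The sequences below, around the strongest control summit, are chosen examples and do not show how common a motif is. Of them, 4 are shown because they carry a motif counted below and 1 because it is the promoter with the largest fall. Each is 121 bases of RefSeq's GRCm38 (mm10) assembly, on the plus strand, and capitals mark a match to an AP-1, RUNX, TEAD or CTCF motif on either strand.
Abca4 upstream region, chr3:122010449-122010569: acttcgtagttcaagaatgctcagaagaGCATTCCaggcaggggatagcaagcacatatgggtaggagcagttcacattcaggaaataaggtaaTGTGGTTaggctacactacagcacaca
Impad1 upstream region, chr4:4822298-4822418: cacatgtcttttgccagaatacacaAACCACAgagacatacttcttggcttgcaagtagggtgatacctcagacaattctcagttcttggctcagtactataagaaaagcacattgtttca
Slc17a6 exon, chr7:51644954-51645074: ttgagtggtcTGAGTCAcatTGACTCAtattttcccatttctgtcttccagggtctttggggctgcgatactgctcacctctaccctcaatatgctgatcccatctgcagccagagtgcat
Ifitm6 promoter, chr7:141016703-141016823: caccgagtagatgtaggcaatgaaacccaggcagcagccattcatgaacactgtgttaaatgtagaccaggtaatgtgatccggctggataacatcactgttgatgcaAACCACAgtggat
2210016L21Rik promoter, chr5:114942148-114942268: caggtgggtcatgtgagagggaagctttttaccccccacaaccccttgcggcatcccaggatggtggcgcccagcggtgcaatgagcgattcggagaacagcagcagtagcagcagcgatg
The Abca4 sequence holds a TEAD match (GCATTCC) and a RUNX match (TGTGGTT, the other strand of AACCACA), the Slc17a6 sequence holds AP-1 matches in both orientations, and the 2210016L21Rik sequence holds no match to these 4 motifs. At least 1 of these motifs lay within 100 bp of the summit in 59.1% of falling and 52.3% of all shared regions.

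By the rule, the falling regions ranked lower in fold enrichment in DAC-treated than in control 4T1 cells. Their median percentile was 31.1, 30.9 and 30.7 in the 3 DAC libraries and 65.4, 65.5 and 65.4 in the 3 control libraries. The median fold enrichment was 6.11 ± 0.0640 in DAC-treated cells and 13.4 ± 0.0621 in control cells (SD, n = 3 each), beside 8.46 ± 0.0594 and 10.6 ± 0.0592 over all shared regions. The peaks themselves were narrower, with a median width of 397 ± 16.1 bp in DAC-treated and 587 ± 9.29 bp in control cells, while over all shared regions the median widths were 591 ± 15.3 and 608 ± 7.10 bp. Rising regions had the reverse, 614 ± 15.3 and 410.5 ± 8.23 bp, so width went with the direction in which regions were chosen. The summit moved little, by a median of 6 bp, and by at most 50 bp in 84.97% of the falling regions.

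Fold enrichment can be lower because fewer fragments cover the summit or because the background around it is higher, and the deposited fold enrichment and p-value of a peak together give both numbers. The median number of fragments over the summit, the pileup, was 46, 51 and 41 in the DAC libraries and 80, 86 and 78 in the control libraries. Over all shared regions it was 95.7 ± 10.0 in DAC-treated and 107 ± 6.11 in control cells. The background density of the whole library was higher in DAC-treated cells, at 5.89 ± 0.613 fragments against 4.19 ± 0.214 in control cells, so that pileups were also set over it. On that scale the falling regions had a median of 7.81 ± 0.0371 in DAC-treated and 19.4 ± 0.0420 in control cells, and all shared regions 16.2 ± 0.0900 and 25.6 ± 0.166. The local background of the falling regions was close to the library density in both groups, at 1.00 times the density in DAC-treated and 1.07 ± 0.00582 times in control cells, whereas all shared regions stood at 1.63 ± 0.00497 and 1.98 ± 0.00822 times. In 6488 of 7302 regions with all pileups recovered (88.9%) every DAC pileup was below every control pileup, beside 33.3% of all shared regions, and in 47 regions every DAC pileup was above. Pileup is part of the fold enrichment that chose the regions, so this order is partly built in. The DAC libraries had both the higher density and more peaks, and the part of the density in these ranks was not tested.

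**Figure D1:**
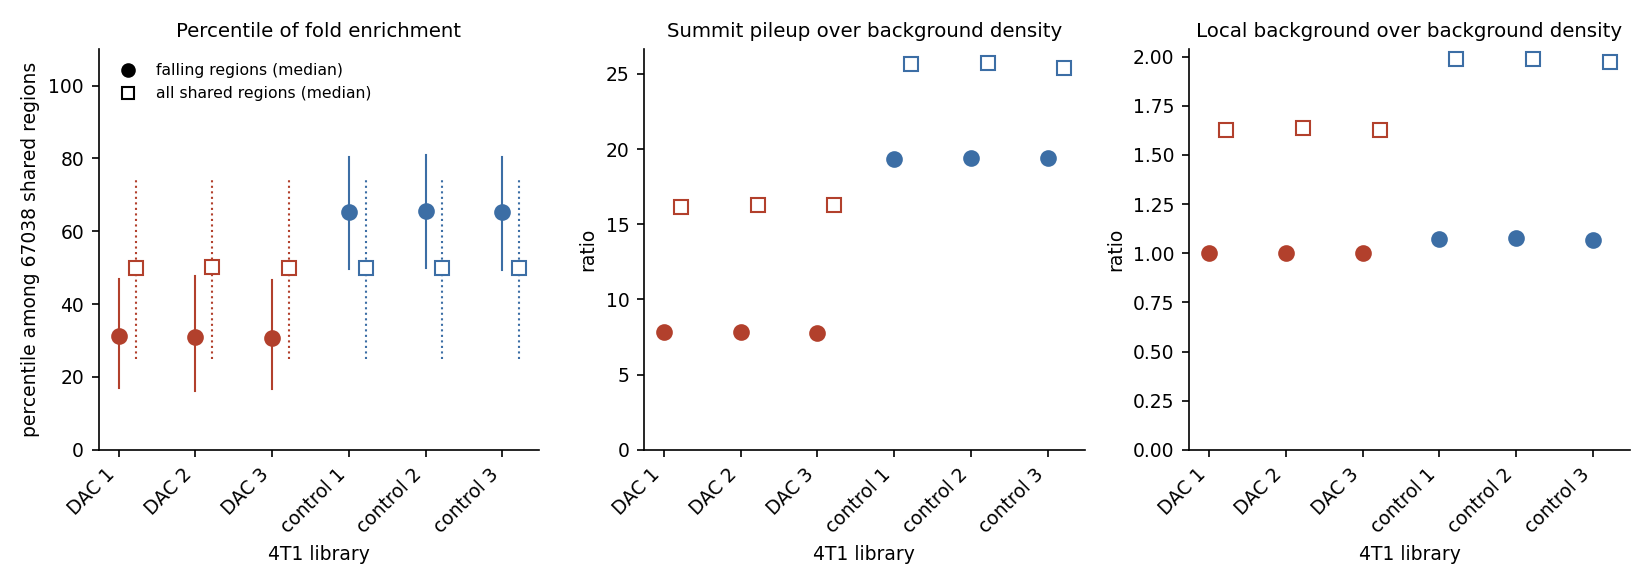
Medians in each 4T1 library for the 7314 falling regions (filled circles) and all 67038 shared regions (open squares), DAC libraries in red and control libraries in blue. From left to right the panels plot the percentile of fold enrichment (lines span the quartiles), the summit pileup over the background density of the library and the local background over that density. The 3 libraries of a group lie close together in each panel, and the falling regions sit near percentile 31 in DAC and 65 in control libraries.

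The mean DAC minus control difference had its largest value at −84.8 and its median at −29.0 points. A region 44998 bp from Col6a2, a collagen VI gene, had percentiles of 51.2, 49.1 and 61.9 in DAC and 76.3, 71.3 and 74.6 in control libraries and was just inside the limit, as were one 364536 bp from Pdgfc and one in Kcnq1. A region in Dock1, with 77.6, 69.3 and 69.9 in DAC and 89.3, 93.3 and 94.2 in control libraries, was just outside it, as were regions 246109 bp from Sp4 and 582227 bp from Pmfbp1, the second in an intron of Zfhx3.

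Of the 10 largest falls away from promoters, the 9 described here were at percentiles of 24.3 or lower in every DAC library and 74.9 or higher in every control library. Regions are named for the protein-coding gene with the nearest 5′ end, which need not be the gene they act on. The region chr3:122010179-122010944 lay 33499 bp upstream of Abca4, a lipid transporter gene of photoreceptors, in an intron of Arhgap29. It had percentiles of 7.21, 9.92 and 10.1 in DAC and 93.1, 93.0 and 95.3 in control libraries. Its pileups were 24, 29 and 24 in DAC and 143, 153 and 163 in control libraries. Pileup is part of the fold enrichment that chose the region, so this gap is no separate support. The region chr16:55394830-55395276, 96844 bp from Zpld1, had 7.21, 11.1 and 14.9 in DAC and 97.9, 90.9 and 93.0 in control libraries. The region chr4:4822036-4822762, 28681 bp from Impad1, a Golgi nucleotide phosphatase gene, had 3.15, 11.1 and 16.6 in DAC and 94.3, 93.2 and 91.4 in control libraries. Its 201-bp window also held an AP-1 motif outside the bases printed above. The Slc17a6 exon (chr7:51644632-51645310), in the gene of a vesicular glutamate transporter, had 9.74, 7.64 and 18.2 in DAC and 93.0, 92.9 and 93.1 in control libraries. Another 5 of the 10 largest falls, between 78.0 and 81.3 points, lay outside the genes they are named for. One was 122621 bp from Ndst4, a heparan sulfate modifying enzyme gene, and one 397890 bp from Bckdhb, a branched-chain amino acid catabolism gene. The next was 36380 bp from Itga1, the integrin alpha 1 gene. The others were 49401 bp from Rps27rt, in an intron of Osbpl10, and 385166 bp from Dcn, the gene of the matrix proteoglycan decorin. The Dcn region had pileups of 36, 39 and 24 in DAC and 218, 237 and 215 in control libraries.

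Promoters were few among the falling regions, 254 in all, and the largest falls there were smaller. Ifitm6, a member of the interferon-induced transmembrane family, had promoter percentiles of 21.3, 27.9 and 11.6 in DAC and 85.9, 85.8 and 88.4 in control libraries, and pileups of 34, 43 and 25 in DAC and 140, 146 and 143 in control libraries. C1rl, a complement protease gene, had 18.4, 14.9 and 39.1 in DAC and 91.4, 70.1 and 91.9 in control libraries. Syne4, the gene of the nuclear envelope protein nesprin-4, had 6.04, 5.57 and 7.27 in DAC and 74.997, 41.9 and 54.7 in control libraries. The control libraries there spread widely, and that they lay above the DAC libraries was required by the rule. The DAC minus control difference lay between −52.9 and −47.7 points at Speer3, one of a family of near-identical genes whose reads are hard to place, Ripply1, a repressor in somite formation, Fgl1, the gene of a secreted ligand of LAG-3, Tef, a transcription factor of the circadian output, Guca2a, the gene of the gut peptide guanylin, and 2410004P03Rik. The largest promoter fall, 67.6 points at 2210016L21Rik (chr5:114941938-114942932), was different. Its percentiles were 22.2, 21.8 and 22.3 in DAC and 90.3, 91.7 and 87.1 in control libraries, but its pileups were 277, 294 and 230 in DAC and 240, 262 and 217 in control libraries, which overlap. Its fold enrichment was 5.19, 5.22 and 5.18 in DAC and 19.2, 19.8 and 18.2 in control libraries, with no overlap. Since fold enrichment is a ratio to the local background, that background was higher there in the DAC libraries.

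**Figure D2:**
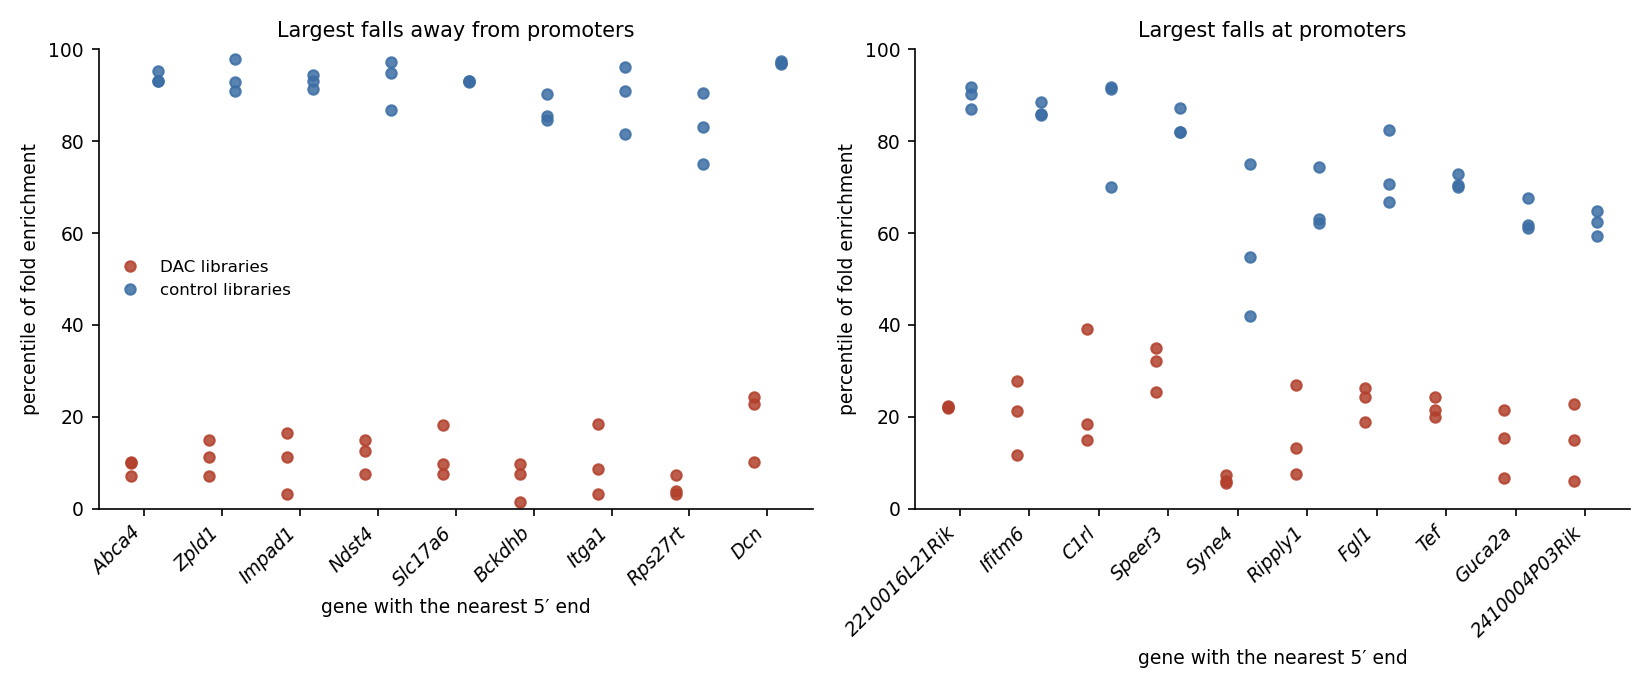
Percentile of fold enrichment (vertical axis) in each of the 3 DAC (red, left) and 3 control (blue, right) 4T1 libraries for 9 of the 10 falling regions with the largest falls away from promoters and the 10 with the largest at promoters. The control points away from promoters lie at 74.9 or above and the DAC points at 24.3 or below.

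Falling regions lay away from genes' starts and held little CpG. Only 254 of 7314 (3.47%, exact 95% interval 3.07 to 3.92) were within 1000 bp of the start of a protein-coding gene, beside 16.9% of rising regions, 2.61% of the 5245 regions called in the 3 controls alone and 16.7% of all shared regions. Another 44.5% were in introns, 47.2% between genes and 4.84% in exons. Their median distance to a gene start was 35965 bp, beside 25208.5 bp for rising and 22705.5 bp for all shared regions, and 41.1% were over 50 kb away, beside 31.5% of all shared regions. The intervals cover counting only, since neighbouring regions are not independent replicates. Island-like CpG content was found at 20.5% of the 254 falling promoters and at 67.9% of all shared promoters, and 170 of the falling promoters (66.9%) spanned an annotated start, beside 88.6% of all shared promoters.

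The share of falling regions went down with CpG density. Of the shared regions with fewer than 1 CpG per 100 bp, 16.3% were falling and 7.80% rising, while at 5 or more CpGs per 100 bp 1.03% were falling and 10.3% rising. Away from promoters the same classes had 16.3% and 1.90% falling. Island-like content was found in 1.23% of falling regions, 17.4% of rising regions and 14.1% of all shared regions. Regions made up mostly of repeat sequence were 3.92% of falling, 11.1% of rising and 4.82% of all shared regions, though any repeat base within 100 bp of the summit was found in 51.1% of falling and 49.5% of all shared regions.

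RUNX and TEAD motifs were more frequent in falling regions than in shared regions as a whole. The RUNX motif (AACCACA, sought on both strands within 100 bp of the strongest control summit) was found in 832 falling regions (11.4%, exact 95% interval 10.7 to 12.1), beside 5.92% of rising, 11.4% of controls-alone and 7.58% of all shared regions. The TEAD motif (ACATTCC or GCATTCC) was found in 988 (13.5%, 12.7 to 14.3), beside 7.14% of rising, 12.4% of controls-alone and 9.18% of all shared regions. Seen from the motif, 16.4% of the 5082 shared regions with a RUNX motif and 16.1% of the 6153 with a TEAD motif were falling, and 21.01% of the 514 with both, where the background is 10.9%. Only 6.03% of the regions with both were rising. These matches are letters in the sequence and say nothing of which protein was bound.

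AP-1, the commonest motif (TGACTCA or TGAGTCA), did not set the falling regions apart in the same way. It was found in 2485 of them (34.0%, exact 95% interval 32.9 to 35.1), beside 43.3% of rising, 28.4% of controls-alone and 34.8% of all shared regions. Away from promoters, where most AP-1 motifs lie, the shares were 34.8% of falling, 50.4% of rising and 40.4% of all shared regions. The order changed with the size of the fall. Among the 3378 regions with a fall of at least 30 points the AP-1 share was 36.5%, above that of all shared regions. It was still below the 40.4% of all shared regions away from promoters. Larger falls also started at higher control percentiles. Over all shared regions AP-1 was in 32.7% to 33.9% from control percentile 20 to 80 and in 41.9% from 80 to 100. Motifs that mark promoters were rarer in falling regions. The NFY box (a CCAAT element) was found in 3.34% of falling, 7.77% of rising and 5.26% of all shared regions, and the SP/KLF GC box in 1.65%, 5.70% and 5.68% of them.

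RUNX and TEAD were also more frequent in falling regions of like strength in control cells. The rule leaves no falling region under the 20th control percentile, so shares were also compared within ranges of control percentile. From 20 to 40, 40 to 60, 60 to 80 and 80 to 100, RUNX was found in 11.4%, 11.1%, 10.8% and 12.5% of falling regions and in 7.89%, 6.56%, 6.43% and 7.58% of the other shared regions. TEAD was found in 12.7%, 12.5%, 13.9% and 14.5% of falling regions and in 8.56%, 8.42%, 8.43% and 8.98% of the others. AP-1 was found in 28.7%, 31.2%, 32.6% and 41.6% of falling regions and in 33.9%, 32.9%, 34.2% and 41.9% of the others. CTCF was found in 8.94%, 11.2%, 11.0% and 8.11% of falling regions and in 10.9%, 10.3%, 7.87% and 5.28% of the others. The others held more promoters, 11.4% to 27.8% by range, beside 3.10% to 4.35% of falling regions. Away from promoters, at any control percentile, RUNX was in 11.6% of falling and 8.57% of all shared regions, and TEAD in 13.7% and 10.2%.

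A count of all words of 8 bases, made without regard to known motifs, gave a like picture. The 5 words with the largest excess in falling regions were AAACCACA (4.77% of falling and 2.81% of other shared regions), ACATTCCT (3.73% and 2.06%), AACCACAG (4.09% and 2.51%), AGGAAATG (4.54% and 3.09%) and ATGATTCA (4.33% and 2.92%). The 1st and the 3rd contain the RUNX motif and the 2nd contains a TEAD motif. The word with the largest deficit was CCCCGCCC (2.11% and 6.89%), which is part of the GC box, and GTGACTCA, an AP-1 word, was at 11.9% and 14.0%.

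**Figure D3:**
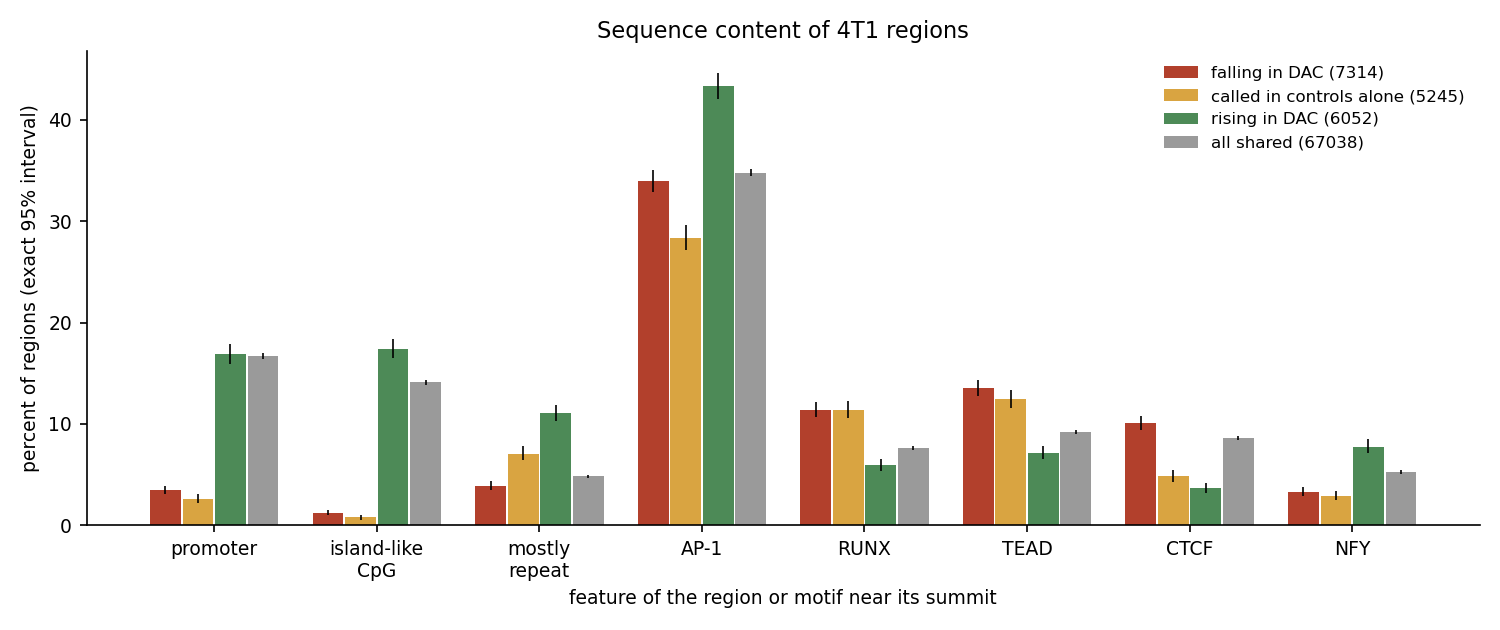
Percent of regions (vertical axis, bars with exact 95% intervals) near a promoter, with island-like CpG content, mostly of repeat sequence or with each motif, for 7314 falling, 5245 controls-alone, 6052 rising and all 67038 shared 4T1 regions. Falling regions have few promoters (3.47%) and more RUNX (11.4%) and TEAD (13.5%) motifs than all shared regions.

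The CTCF motif behaved unlike the others, and its share differed with the size of the fall and with what was ranked. It was found in 738 falling regions (10.1%, exact 95% interval 9.41 to 10.8), beside 3.67% of rising, 4.84% of controls-alone and 8.63% of all shared regions. Away from promoters the shares were closer, at 10.2% of falling (9.47 to 10.9) and 9.79% of all shared regions. With the motif sought in whole regions they were 12.6% and 12.3%. Among falls of 20 to 30, 30 to 40, 40 to 50 and 50 or more points the CTCF share was 13.0%, 8.85%, 5.50% and 1.09%. RUNX in the same classes was at 10.7%, 10.1%, 13.6% and 16.8%, TEAD at 12.1%, 14.8%, 14.0% and 18.3%, and AP-1 at 31.8%, 35.4%, 37.3% and 39.1%. The median control percentile of these classes was 58.7, 66.2, 71.4 and 79.0, so the size of the fall went with the starting level. The promoter share was 4.42% in the smallest and 1.27% in the largest falls. The 552 regions with the largest falls were therefore poor in CTCF motifs and promoters and rich in RUNX and TEAD motifs.

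With regions ranked by pileup in place of fold enrichment, 4235 regions met the same rule, of which 2714 were falling regions (37.1% of the falling regions and 64.1% of the regions chosen by pileup). The CTCF motif was in 2.64% of the regions chosen by pileup, below its 8.66% in all shared regions with recovered pileups. That is a deficit, where the falling regions had a small excess that was smaller still away from promoters. It was in 14.3% of the falling regions not chosen by pileup and in 3.06% of those chosen by both. Ranking by −log10 q gave 5129 regions and a CTCF share of 4.04%. The RUNX and TEAD shares were larger under both rankings, at 13.9% and 16.95% by pileup and 12.8% and 16.6% by −log10 q. The AP-1 share stayed near that of all shared regions, at 34.2% by pileup and 33.1% by −log10 q.

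**Figure D4:**
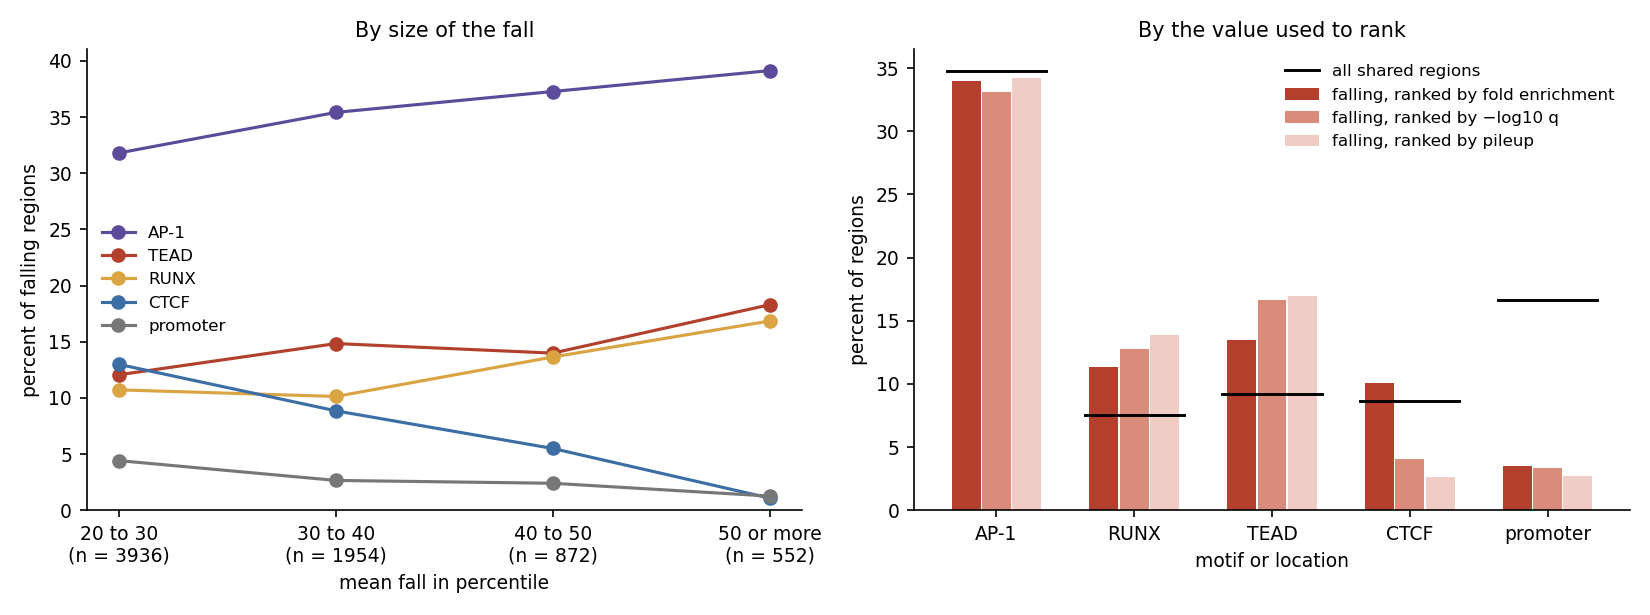
Left, percent of falling regions (vertical axis) with each motif or near a promoter, by the size of the mean fall in percentile. Right, the same shares when regions were chosen by the same rule from fold enrichment, −log10 q or pileup, with black lines for all shared regions. CTCF is at 13.0% in the smallest and 1.09% in the largest falls and drops under the line in both other rankings, while RUNX and TEAD stay above it.

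Falling regions were spread over many genes. They were assigned to 4892 of 16513 genes with a shared region, 3437 of which had 1 falling region. Trib2, a pseudokinase gene, had the most, 12 of its 31 shared regions, with DAC minus control differences of −58.8 to −21.96 points, and 7 of the 12 held an AP-1 motif and 3 a RUNX motif. Sox9, a transcription factor gene of epithelial progenitors and cartilage, had 11 of 53, 8 of them with an AP-1 motif. Flrt3, the gene of a cell adhesion protein that binds FGF receptors, had 10 of 27, Thbs1, the gene of the matrix protein thrombospondin 1, had 9 of 26, and Zfp608 had 9 of 34. An AP-1 motif was in 3 of these at Flrt3, 1 at Thbs1 and 3 at Zfp608, beside 34.0% of all falling regions. A RUNX motif was in 1 at Sox9, 2 at Flrt3, 3 at Thbs1 and 1 at Zfp608, beside 11.4% of all falling regions. The promoters of these 5 genes were not lower in rank. The Thbs1 promoter had percentiles of 46.0, 49.4 and 42.1 in DAC and 36.8, 32.6 and 32.5 in control libraries, and the mean DAC minus control difference was 11.9 points there, 10.6 at Trib2, 6.04 at Flrt3, 2.48 at Zfp608 and 1.73 at Sox9. Among the 344 genes with a shared promoter region and 3 or more falling regions away from promoters, the median promoter difference was 8.80 points and 7 promoters (2.03%) were falling, beside 7.70 points and 2.10% of the 5052 genes with no such region.

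Gene lists for mammary tumour cells each had a minority of falling regions. Over all genes 7060 of 55862 shared regions away from promoters (12.6%) were falling. The Wnt pathway had 27 of 159 (16.98%), DNA methylation machinery 10 of 60 (16.7%), epithelial-mesenchymal transition and mesenchymal genes 28 of 177 (15.8%) and interferon response and antigen presentation 7 of 50 (14.0%). In the same order, 9.43%, 13.3%, 8.47% and 6% of these regions were rising, beside 9.01% over all genes. Close to the background were RUNX factors and CBFB with 8 of 62 (12.9%), TGF-beta and BMP signalling with 45 of 352 (12.8%), germline and testis genes with 3 of 24 (12.5%), p53 targets and DNA damage with 14 of 124 (11.3%), tight and adherens junctions with 25 of 223 (11.2%), EGFR, FGFR and MAPK signalling with 26 of 233 (11.2%), AP-1 subunits and regulators with 22 of 200 (11.0%) and actin cytoskeleton, integrins and matrix with 31 of 291 (10.7%). Below it were housekeeping genes with 7 of 77 (9.09%), cell cycle and DNA replication with 8 of 90 (8.89%), mammary and simple epithelial identity with 16 of 188 (8.51%), NF-kB and inflammatory cytokines with 15 of 200 (7.5%), Hippo pathway and YAP-TEAD targets with 13 of 201 (6.47%) and basal epithelial and keratinisation with 7 of 114 (6.14%). Several counts are small, and these shares are a description with no test.

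Single regions of these genes were named with falling promoters first and then by the size of the fall. They are therefore among the largest falls of a list and do not show its range. Away from promoters 8.51% of mammary identity regions were falling and 7.98% rising. The shares were 11.2% and 10.8% for junctions and 7.5% and 6% for NF-kB, beside 12.6% and 9.01% over all genes. A region 84964 bp from Ctnnb1, the gene of beta-catenin, with AP-1 and RUNX motifs, had percentiles of 8.42, 25.4 and 6.00 in DAC and 87.8, 89.2 and 84.1 in control libraries. A region 46118 bp from Runx1, itself a RUNX factor gene, had 29.8, 27.9 and 39.1 in DAC and 94.2, 89.9 and 93.9 in control libraries, with pileups of 40, 43 and 43 in DAC and 121, 119 and 119 in control libraries. The rule itself keeps the percentiles of the groups apart in every falling region, and pileup is part of the fold enrichment that it ranks. A region 124817 bp from Il6, the gene of an inflammatory cytokine, had 12.6, 8.75 and 19.9 in DAC and 78.2, 70.1 and 74.5 in control libraries. A region 364548 bp from Trps1, a GATA-type repressor of mammary epithelium, had 33.7, 29.2 and 19.9 in DAC and 93.4, 88.6 and 84.4 in control libraries. Falls of 53.3 to 58.2 points were also found in regions assigned to Fn1, the fibronectin gene, Inhba, a subunit gene of activin, Tpm1, a tropomyosin gene, Dusp5, a phosphatase gene that acts on ERK, Runx3 and Thbs1. They lay 41917 bp (Dusp5) to 269472 bp (Inhba) from the starts of these genes. The Dusp5 region had pileups of 154, 146 and 139 in DAC and 194, 204 and 195 in control libraries, beside a fall of 56.9 points in rank. Of the list genes, 3 had a falling promoter, each with a fall of 20.3 to 22.3 points: Tead2 (13.3, 13.0 and 30.0 in DAC and 49.9, 42.2 and 31.3 in control libraries), Tgfbr3, the betaglycan gene (58.9, 63.6 and 66.2 in DAC and 81.4, 85.3 and 84.4 in control libraries), and Eef1a1, a translation elongation factor gene (29.5, 29.5 and 45.05 in DAC and 55.7, 56.3 and 52.97 in control libraries). Near Tex19.1, a germline gene, the pileups were 145, 157 and 126 in DAC and 95, 105 and 100 in control libraries. Fold enrichment there was 4.74, 4.75 and 4.62 in DAC and 11.96, 12.7 and 13.5 in control libraries, so the local background was higher in the DAC libraries.

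The nearest shared region was itself falling for 14.6% of falling regions, beside 11.7% of rising and 9.72% of all shared regions. It was a rising region for 11.1% of falling and 9.23% of all shared regions, and the median gap to it was 8743 bp for falling and 5731 bp for all shared regions. By chromosome, the share of shared regions that were falling was 9.08% to 12.5% on the autosomes and 15.2% on X (201 of 1323), and away from promoters it was 12.5% over the autosomes and 18.96% on X. The rising share on X was 7.48%, beside 9.06% on the autosomes.

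The rule did not use the B16F10 libraries. Most falling regions had no peak there: 4324 (59.1%) overlapped a peak in none of the 6 B16F10 libraries and 1782 (24.4%) overlapped one in all 6, beside 50.9% and 33.7% of all shared regions. Away from promoters the shares called in all 6 were 23.6% and 24.2%. The motifs differed between these classes. Of the falling regions with no B16F10 peak 46.3% held an AP-1 motif, 15.1% a TEAD motif, 13.8% a RUNX motif and 1.295% a CTCF motif. Of those in all 6 B16F10 libraries 10.4% held an AP-1 motif, 10.3% a TEAD motif, 6.73% a RUNX motif and 27.5% a CTCF motif. All shared regions had the same kind of split, with 51.2% AP-1 and 2.09% CTCF in regions without a B16F10 peak and 11.7% AP-1 and 14.8% CTCF in regions with one in all 6. In that last class 40.1% of all shared regions were promoters, beside 6.45% of falling regions.

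Percentiles in B16F10 were taken among the 22565 shared 4T1 regions called in all 6 B16F10 libraries. In an exact two-sided permutation of 3 against 3 libraries the smallest p is 0.1, so that no single region can pass 0.05, and regions are counted by whether the groups overlap. All DAC percentiles were below all control percentiles in 279 of the 1782 falling regions (15.7%), beside 10.2% of all regions tested, and above them in 142 (7.97%), beside 11.2%. Rising regions of 4T1 had 7.61% and 16.1%. The median B16F10 difference of the falling regions was −2.53 points, with quartiles of −10.0 and 3.69, beside 0.04 over all regions tested, and it was below 0 in 61.4% of them. The result was not the same under other rankings of 4T1: for those chosen by pileup the shares were 9.31% below and 14.3% above, and for those chosen by −log10 q 12.5% in each direction. With 1 B16F10 library left out the shares were 20.8% to 23.4% below and 11.3% to 12.5% above, beside 15.1% to 15.5% and 15.3% to 17.5% of all regions. The share above was more than 1.5 times its value with all libraries without control replicate 3 (12.5%) and without DAC replicate 1 (12%). Across the 1782 regions the change in 4T1 and that in B16F10 had a Pearson r of −0.0462, and across all 22565 regions tested r was 0.144, both a description over regions that share libraries. The rule limits the 4T1 change of the falling regions to −20 or lower, which narrows the range behind the first value.

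Within B16F10 the direction differed by motif. Of 490 falling regions with a CTCF motif, 95 (19.4%) had lower and 12 (2.45%) higher DAC percentiles in B16F10, with a median difference of −6.32 points, and all 3342 tested regions with the motif had 14.8% and 4.88%. Of 185 falling regions with an AP-1 motif, 8 (4.32%) were lower and 43 (23.2%) higher in DAC-treated B16F10, with a median of 3.11 points, beside 8.41% and 21.8% of all 2651 tested regions with the motif. TEAD regions were split, with 20 of 183 (10.9%) lower and 21 (11.5%) higher, beside 9.505% and 15.4% of all 1494 tested regions with the motif. RUNX regions had 27 of 120 (22.5%) lower and 13 (10.8%) higher, beside 12.9% and 12.6% of all 1040. Of the 279 regions falling in 4T1 and lower in B16F10, 34.1% held a CTCF motif and 2.87% an AP-1 motif, while of the 142 that were higher in B16F10 8.45% held a CTCF motif and 30.3% an AP-1 motif.

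**Figure D5:**
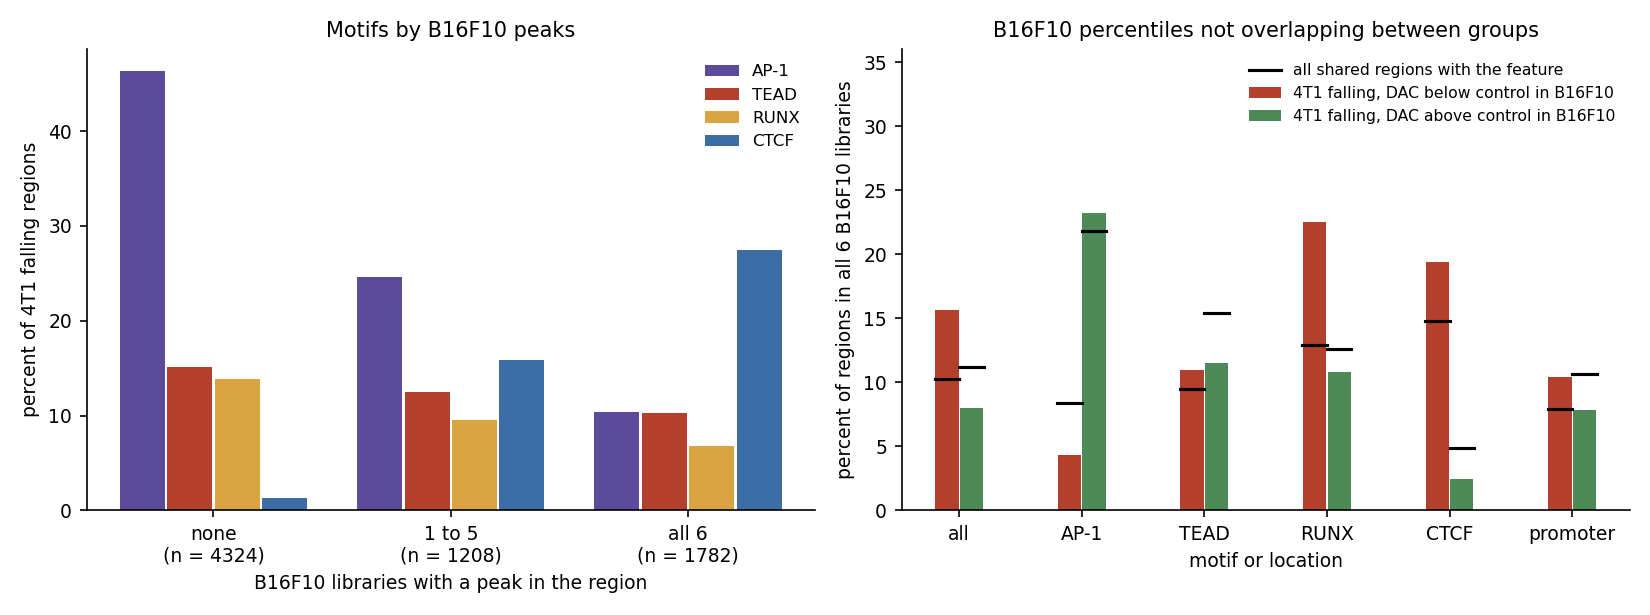
Left, percent of falling 4T1 regions with each motif (vertical axis), by the number of B16F10 libraries with a peak in the region. Right, among regions called in all 6 B16F10 libraries, percent of falling regions whose B16F10 DAC percentiles lay all below (red) or all above (green) the controls, with black lines for all shared regions with the same motif. With an AP-1 motif 4.32% were below and 23.2% above, and with a CTCF motif 19.4% were below and 2.45% above.

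The 5 falling regions with the largest falls in B16F10 lay between genes. A region 66846 bp from Arntl, a circadian clock gene (chr7:113139948-113140619), had B16F10 percentiles of 8.51, 14.6 and 8.40 in DAC and 55.1, 59.0 and 49.4 in control libraries, and in 4T1 3.96, 25.4 and 10.8 in DAC and 36.2, 36.7 and 37.6 in control libraries. A region 19895 bp from Kdelr2, the gene of a receptor that returns proteins to the endoplasmic reticulum, had 24.99, 25.04 and 9.59 in DAC and 59.0, 54.5 and 72.8 in control libraries of B16F10. The next were near Cep19, Pfkl and Sla2, with B16F10 differences of −36.3, −35.9 and −35.5 points. These 5 were chosen for their B16F10 falls, so their values there are a description with no test.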

How the data were processed

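The deposited files were 1 narrowPeak list per library, called by the authors on each library alone. The files have no header, and units follow the narrowPeak layout: the authors' fold enrichment is a ratio to local background, each peak carries a deposited −log10 of its p-value and of its q-value, and the deposited score, a rescaled −log10 q, was not analysed. Per the submitters' processing notes the build was mm10, and MACS2, Bowtie2, Picard, DiffBind, ChIPseeker, FastQC and MultiQC were used. Their versions and options are not given in the sources used here. The labels do not say that replicates were separate cultures or which instrument ran which library, so the spread may be technical. The lists hold no read counts, and the depth is unknown. Lists held 107938 to 118438 peaks in DAC and 89727 to 94174 in control 4T1 libraries on chromosomes 1 to 19 and X.

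Regions were built with Python 3.11.15, pandas 2.3.3, numpy 2.4.6, scipy 1.17.1 and pysam 0.24.0. Pileup and local background were solved from a peak's p-value and its fold enrichment (Poisson upper tail, 1 added to both), within 0.001 in −log10 p, for at least 99.8% of the peaks of each 4T1 library, and the background density is the commonest local background. The steps were tested on simulated data. Genes were 21728 protein-coding genes of GENCODE M21, promoters 1000 bp either side of their 5′ ends. Sequence was GRCm38, with island-like meaning CpG observed to expected above 0.6 and GC above 50%, and 27 motifs were sought in 201 bp. The members, motifs, tests and 18 gene lists were chosen with earlier results of these data known. Named regions were the 10 largest falls away from promoters (1 is not reported here) and the 10 at promoters, the 5 genes with most falling regions, up to 4 genes per list, 3 regions either side of the limit and 5 per direction in B16F10. Of 491 list symbols 489 matched. Alternatives to the rule, merging, ranking, windows and libraries are given in the closing section.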

Additional observations from a re-analysis of the deposited data

Results flagged for a closer look

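Among the 142 falling regions whose DAC percentiles were all higher in B16F10, the 5 with the largest difference there went down in every DAC library of one line and up in every DAC library of the other. They were chosen for that, and the difference between the lines was not tested. The region near Avpr1b, the gene of a vasopressin receptor, had B16F10 percentiles of 79.7, 51.6 and 70.5 in DAC and 32.3, 16.4 and 5.23 in control libraries, a difference of 49.3 points, and −28.3 points in 4T1. In an intron of Cit, the citron kinase gene, the B16F10 difference was 41.9 points and the 4T1 difference −24.6 points. In an intron of Commd10 the B16F10 percentiles were 94.1, 85.1 and 83.8 in DAC and 52.4, 46.8 and 39.0 in control libraries, a difference of 41.6 points, beside −34.8 points in 4T1. The region 82173 bp from Fggy, a carbohydrate kinase gene, had 38.0 points in B16F10 and −46.3 points in 4T1. The region 157024 bp from Rnf152, a ubiquitin ligase gene, had 37.5 points in B16F10 and −53.0 points in 4T1, with 4T1 percentiles of 21.3, 25.4 and 21.5 in DAC and 83.1, 73.6 and 70.7 in control libraries.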

How the results depend on the processing

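Shares of falling regions are given here beside 7314 regions and the shares in the report. With a fall of 10 or more there were 14142 regions, with promoter 4.43%, island-like 2.11%, AP-1 32.2%, RUNX 10.1%, TEAD 11.9%, CTCF 11.98% and B16F10 called 27.7%. With 30 or more there were 3378, with 2.37%, 0.651%, 36.5%, 12.1%, 15.2%, 6.72% and 20.2%, and B16F10 rising 9.69%, so that AP-1 and CTCF changed sides of the shares of all shared regions (34.8% and 8.63%). Ranking by −log10 q, chosen after seeing the data, gave island-like 0.858%, repeat 2.61%, RUNX 12.8%, TEAD 16.6%, CTCF 4.04% (reversed), B16F10 called 20.6%, falling 12.5% and rising 12.5% (reversed). Ranking by pileup, also chosen after seeing the data, gave 4235 regions, promoter 2.74%, island-like 0.354%, repeat 2.48%, RUNX 13.9%, TEAD 16.95%, CTCF 2.64%, B16F10 called 18.5%, falling 9.31% and rising 14.3%, the last 2 and CTCF reversed. Why CTCF and B16F10 turned was not tested. Log2 fold enrichment centred on the library median gave AP-1 32.6% and B16F10 called 22.8%, and peaks of −log10 q of 5 or more gave B16F10 called 25.5%. Promoters of 500 and 2000 bp gave 2.73% and 4.81%, beside 15.7% and 18.8% of all shared regions. In whole regions the motifs were at 43.5% (AP-1), 23.3% (RUNX), 26.8% (TEAD) and 12.6% (CTCF), and within 50 bp of the summit at 26.0%, 7.21%, 7.90% and 8.75%, on the same side of all shared regions. Any repeat base near the summit gave 51.1%, beside 49.5%. B16F10 peaks that covered more of a region (at least 0.5 of it) gave 15.7% called, beside 24.4% of all shared regions, and 6.70% rising, beside 11.1% of all regions tested. Away from promoters, likewise chosen after seeing the data, island-like content was 0.538%. Leaving out each 4T1 library in turn gave 7452 to 7595 regions, promoter 3.25% to 3.54%, island-like 1.15% to 1.29% and repeat 3.86% to 4.04%. AP-1 was then 33.6% to 34.1%, RUNX 11.0% to 11.6%, TEAD 13.5% to 13.8%, CTCF 9.68% to 10.5% and B16F10 called 23.2% to 24.3%. B16F10 falling was 14.6% to 15.9%, beside 10.2% to 10.3% of all regions tested, and rising 7.62% to 8.38%, beside 11.1% to 11.2%. Leaving out a B16F10 library makes non-overlap easier to reach. It gave falling 20.8% to 23.4%, beside 15.1% to 15.5% of all regions tested, and rising 11.3% to 12.5%, beside 15.3% to 17.5%. With same-numbered libraries paired as a replicate block, a number that the labels do not tie to a shared culture, there were 7345 regions and all shares stayed within their intervals. Of 222 alternative values 156 were within the interval or factor that counts as unchanged, and 8 reversed. Depth is unknown, so no limit from counting could be set on a single region.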

Other observations

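Over all shared regions 10.9% were falling and 9.03% rising, and over those away from promoters 12.6% and 9.01%. Of 755 shared regions with an NF-kB motif, 5.30% were falling and 13.2% rising. Of 3526 with an NFY box, 6.92% were falling and 13.3% rising, and of the 1963 of these away from promoters 11.4% and 16.8%. A GATA motif was found in 1207 regions, of which 14.2% were falling and 7.87% rising. Of 774 regions with the POU motif, bound by octamer factors, 14.9% were falling and 21.7% rising. Regions made up mostly of repeat sequence had 8.88% falling and 20.7% rising.

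An AP-1-like word, TGATTCA or TGAATCA, was chosen after the 8-base words had been counted. It was found in 10.4% of falling, 8.39% of rising and 8.01% of all shared regions, and 14.2% of the 5368 shared regions with it were falling, beside 10.7% of the 23301 with the AP-1 motif itself.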
